A study of Homo sapiens with 12 samples.

Results

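Glycolysis and the pentose phosphate pathway were followed through 32 genes in RNA of MV4-11, an established human line of acute myeloid leukaemia known for its KMT2A fusion and its FLT3 gene with an internal tandem duplication. The genes were picked by symbol, with earlier results of these data known. Each symbol was tied to its Ensembl gene through GENCODE 29, and each gene matched 1 of the 58051 gene rows in the count table. They comprise 3 hexokinases, 11 genes of the upper steps, 6 of the lower steps, 6 that use or gate pyruvate and 6 of the pentose phosphate pathway. All 32 had enough counts to be tested, among 14214 genes tested in all.

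The study asked what a compound aimed at CDK6 does to these cells when set beside an inhibitor of both CDK4 and CDK6. Cells were exposed for 6 h to BSJ-03-123 at 200 nM, to YKL-06-102 at 200 nM, to palbociclib at 200 nM, or to the vehicle DMSO at 0.1%, with 3 libraries each. BSJ-03-123 and YKL-06-102 are, in the submitters' description, phthalimide conjugates specific for CDK6, and palbociclib is an inhibitor of the kinase activity of CDK4 and CDK6. All groups share the same line, medium and serum, so the data speak for 1 established line at 1 dose and 1 time. The labels do not say whether the replicates came from separate cultures, so the p-values describe only how far these libraries spread, and that spread may be technical.

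Glycolysis turns glucose into pyruvate in the cytosol, and its early intermediates can instead enter the pentose phosphate pathway, which yields NADPH and ribose for nucleotides. Lactate dehydrogenase then reduces pyruvate to lactate, or the pyruvate dehydrogenase complex commits it to the mitochondria. The kinase formed by CDK6 and cyclin D3 has been described to phosphorylate 2 of these enzymes, the phosphofructokinase PFKP and the pyruvate kinase isoform PKM2, which lowers their activity and sends intermediates to the pentose phosphate and serine routes. That action is on the proteins, and the present data are messenger RNA. PKM counts cannot separate the isoforms PKM1 and PKM2, which differ by one exon.

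Library totals ranged from 18764307 to 25539858 counts, and the 32 genes held 1.43% to 1.54% of them. DMSO replicate 2 stood apart from the other DMSO libraries, with a chi-square per degree of freedom of 5.71 and 8.63 against them, where other replicate pairs of a group gave at most 2.91. It was the highest DMSO library for 18 of the 32 genes (56.2%), against 36.2% of all genes tested, and calls against DMSO that end without it are named where those genes are described. The myeloid markers SPI1, CD33, FLT3, CSF1R, HOXA9, MEIS1 and LYZ lay between 44.3 CPM (HOXA9) and 859 CPM (LYZ) over all libraries, while MPO stayed between 6.49 and 10.4 CPM. CPM are counts scaled to a common library size with edgeR's TMM factors. The summed CPM of those 8 markers was 1869 to 1895 under BSJ-03-123, 2176 to 2215 under YKL-06-102, 1889 to 1943 under palbociclib and 1746 to 1778 in DMSO, and 3 of the 8 rose against DMSO under BSJ-03-123, 6 under YKL-06-102 and 4 under palbociclib, where 12.4%, 15.6% and 15.6% of all genes tested were called higher for BSJ-03-123, YKL-06-102 and palbociclib. The part of that shift in the changes of the 32 genes was not tested. In each group, the 3 T lymphoid markers summed to at most 0.0824 CPM and the 3 epithelial markers to at most 0.0523 CPM, and the 3 erythroid markers had no count. The 3 stromal markers summed to at most 0.328 CPM, and of the B lymphoid markers MS4A1 had no count while CD79A reached 1.25 CPM. In bulk RNA, fewer cells of a type and less RNA per cell cannot be told apart.

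One of the 2 RefSeq promoter windows of LDHA, the gene for a lactate dehydrogenase subunit, and the window of FBP1, the gene for fructose-1,6-bisphosphatase, are shown because LDHA fell and FBP1 rose with each compound against the shared DMSO libraries. Both windows run from 250 bases before the RefSeq start to 50 after it on GRCh38.p14, at chr11:18394313-18394612 on the plus strand for LDHA and chr9:94639469-94639768 on the minus strand for FBP1. Capitals mark every match to ACGTG on either strand, here called the core. It is a form of the core of the hypoxia response element and lies within the E-box CACGTG. Other forms of the hypoxia response element, such as GCGTG, were not searched or marked.
LDHA: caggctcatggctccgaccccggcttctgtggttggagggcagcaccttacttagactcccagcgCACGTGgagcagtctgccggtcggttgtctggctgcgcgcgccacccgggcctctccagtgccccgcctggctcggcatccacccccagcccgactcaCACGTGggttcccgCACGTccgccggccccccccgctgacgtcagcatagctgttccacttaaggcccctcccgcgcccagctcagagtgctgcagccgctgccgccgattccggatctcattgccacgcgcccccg
FBP1: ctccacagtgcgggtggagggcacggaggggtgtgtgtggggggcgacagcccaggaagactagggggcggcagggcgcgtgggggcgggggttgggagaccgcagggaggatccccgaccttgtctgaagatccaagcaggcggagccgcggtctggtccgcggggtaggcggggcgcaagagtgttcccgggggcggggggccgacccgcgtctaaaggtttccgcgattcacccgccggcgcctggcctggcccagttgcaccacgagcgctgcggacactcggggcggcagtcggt
The LDHA window holds CACGTG at 185 and at 87 bases before the start and the core alone, read on the other strand as CACGT, at 73 bases before it. The other LDHA window and the FBP1 window have no match to ACGTG. Across all 35116 RefSeq windows of this length, 7.26% hold CACGTG and 21.4% hold the core, against 7 and 20 of the 53 windows of the listed genes. Those 53 windows belong to 31 genes, of which 7 hold CACGTG and 16 the core in at least 1 window. Of all 27305 genes with a window, 8.77% hold CACGTG and 24.9% the core in at least 1. PFKFB2 has no entry. A match is a description of these letters and not a bound site.

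In DMSO, the levels per length spread over more than 3 powers of 10. Expressed as RPKM, here CPM per 1000 bases of the median protein-coding transcript, GAPDH averaged 2519, the enolase ENO1 1565 and the aldolase ALDOA 1116. LDHB at 629, LDHA at 408, PKM at 373 and transketolase TKT at 337 RPKM followed. Of the steps that cells regulate, phosphofructokinase was carried by PFKL at 203 and PFKP at 58.7 RPKM, and hexokinase by HK2 at 24.9 and HK1 at 17.1 RPKM. The gap between PFKL and PFKP rests in part on the lengths used, 1520.5 bases for PFKL and 2654 for PFKP. In CPM they averaged 309 for PFKL and 156 for PFKP, and the shares within families depend on these lengths too. FBP1, which runs the phosphofructokinase step backwards, had 19.1 RPKM, and its range over the 3 libraries met that of the phosphoglycerate mutase PGAM1. At the low end stood ENO2 at 2.37, HK3 at 2.16, PFKFB2 at 1.27, the pyruvate dehydrogenase kinase PDK3 at 1.09 and PFKM at 0.971 RPKM. The plot of DMSO levels shows that neighbours such as GPI, PGD and TALDO1, or PFKM and PDK3, did not differ beyond their spread, and the order also rests on the transcript length used for each gene.

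**Figure D1:**
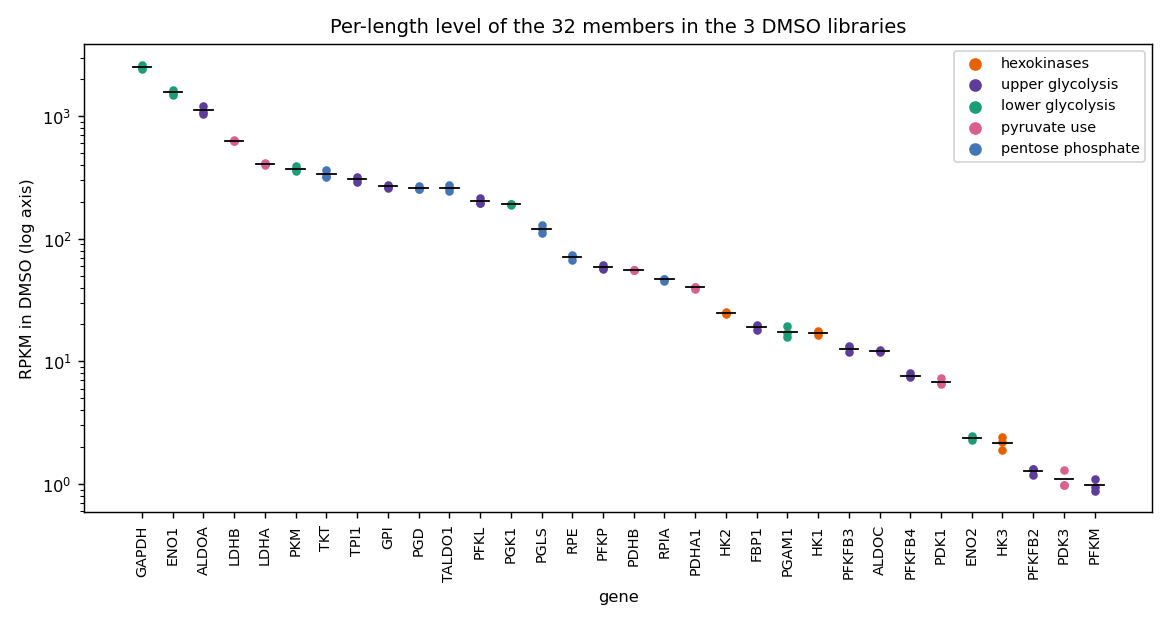
Level of each of the 32 genes in DMSO as RPKM on a log axis, with 1 point per library (n = 3), a bar at the mean and colours for the step of the pathway. The genes run from GAPDH at a mean of 2519 RPKM to PFKM at 0.971 RPKM.

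Against DMSO, the compounds changed many of these genes by small amounts. A gene was called when its Benjamini-Hochberg adjusted p over all genes tested was under 0.05 in edgeR's quasi-likelihood test. With BSJ-03-123, 16 of the 32 genes were called, 4 higher and 12 lower, where 28.1% of all genes tested were called (12.4% higher and 15.7% lower). With YKL-06-102, 19 were called, 8 higher and 11 lower, against 36.9% of all genes (15.6% higher and 21.3% lower). With palbociclib, 18 were called, 7 higher and 11 lower, against 33.3% of all genes (15.6% higher and 17.6% lower). Because the list was chosen with earlier results of these data known, these shares do not test for an excess.

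The libraries of a compound lay wholly above those of DMSO for 6 genes and wholly below for 12 with BSJ-03-123, where 37.2% of all genes did not overlap. The same counts were 8 and 11 for YKL-06-102 against 44.7% of all genes, and 7 and 12 for palbociclib against 41.7%.

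Most of the 32 are abundant and abundant genes were called more often. Of all genes that averaged at least 4 in log2 CPM, the share called was 38.5% for BSJ-03-123, 47.5% for YKL-06-102 and 44.3% for palbociclib, and of the 26 listed genes at that level 12 were called for BSJ-03-123, 15 for YKL-06-102 and 14 for palbociclib. The median log2 fold change of the 32 was -0.05 for BSJ-03-123, -0.07 for YKL-06-102 and -0.06 for palbociclib, and that of all genes tested lay between -0.02 and 0.01. Of the called genes, 13 of 16 for BSJ-03-123, 12 of 19 for YKL-06-102 and 15 of 18 for palbociclib changed by less than 1.25-fold. Scaling by library totals alone in place of TMM turned the split to 7 higher and 8 lower under BSJ-03-123, 11 and 9 under YKL-06-102, and 9 and 7 under palbociclib. Under the 18 alternatives tried, 0 of the calls turned to the opposite direction. The 3 comparisons share the DMSO libraries, so their values are set side by side and not counted as repeats of each other.

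**Figure D2:**
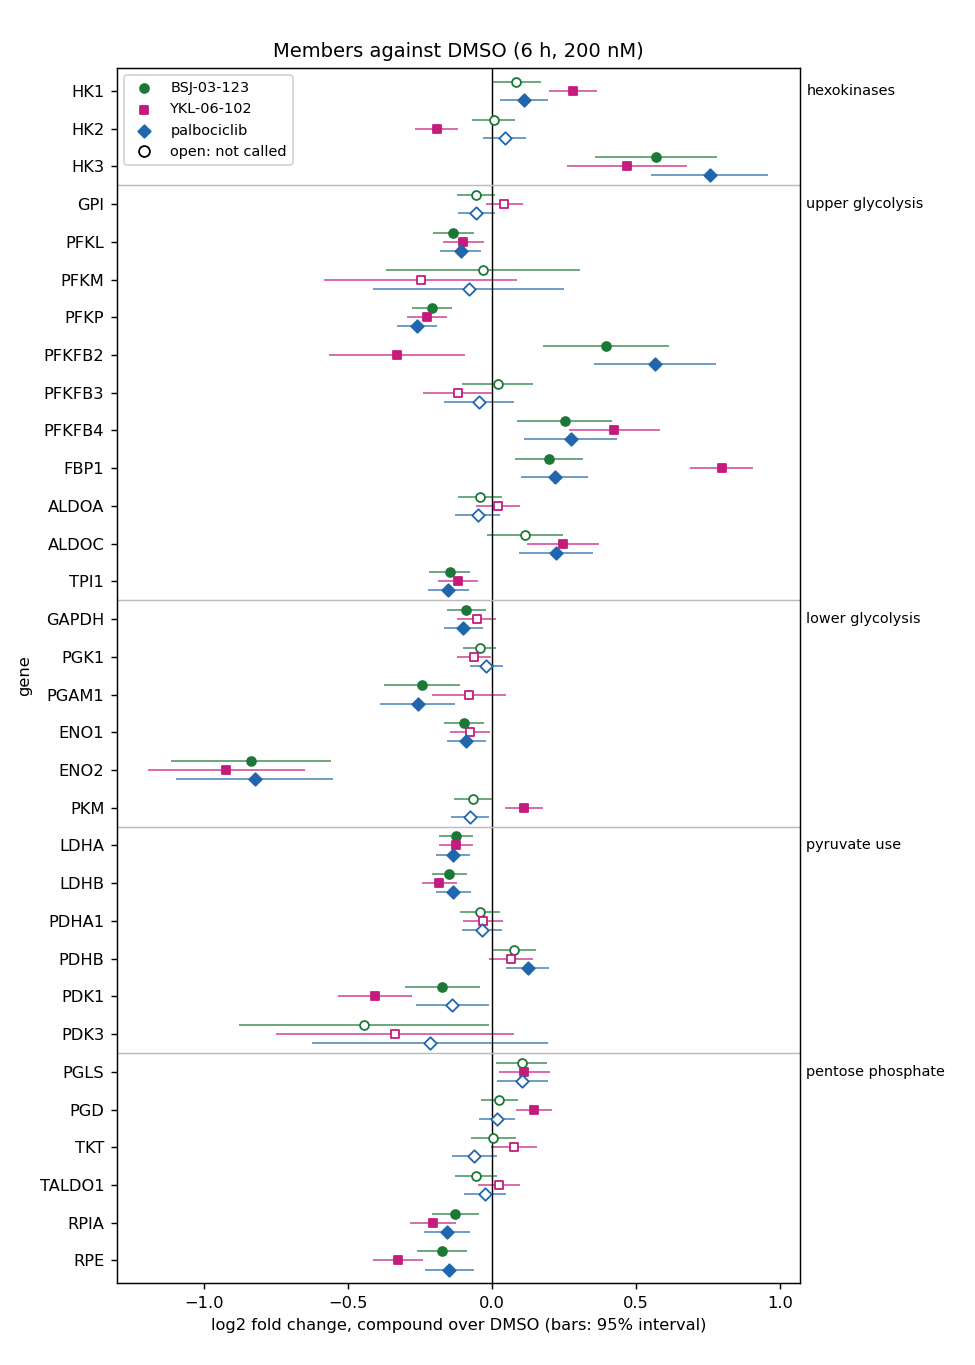
Log2 fold change of each gene, compound over DMSO, with its 95% interval, grouped by step of the pathway, where filled symbols were called and open ones were not (n = 3 libraries a group). ENO2 lies furthest left, between -0.92 and -0.82 with the 3 compounds, and FBP1 with YKL-06-102 lies furthest right, at 0.80.

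The hexokinases, which trap glucose in the cell as glucose 6-phosphate, moved apart under YKL-06-102. HK1, the widely expressed form bound to mitochondria, had 68.0, 69.1 and 72.5 CPM under BSJ-03-123, 80.2, 81.9 and 78.2 under YKL-06-102, 73.0, 70.4 and 70.1 under palbociclib, and 63.1, 66.7 and 67.7 in DMSO. HK2, the form typical of insulin-responsive tissue and of many tumours, had 134, 135 and 145 CPM under BSJ-03-123, 122, 121 and 117 under YKL-06-102, 138, 145 and 142 under palbociclib, and 137, 135 and 140.1 in DMSO. Every YKL-06-102 library was above all DMSO libraries for HK1 and below all of them for HK2. HK1 rose by 0.28 ± 0.040 (log2, SE; adjusted p = 1.55e-06) and HK2 changed by -0.19 ± 0.036 (adjusted p = 9.89e-05) with YKL-06-102. With BSJ-03-123 neither was called (0.09 ± 0.041 and 0.01 ± 0.036), and with palbociclib HK1 changed by 0.11 ± 0.041 (adjusted p = 0.0322) and HK2 was not called (0.04 ± 0.036). The palbociclib call of HK1 was lost without DMSO replicate 1 (adjusted p = 0.198) and without palbociclib replicate 1 or 2 (0.152 and 0.0646). It was also lost with DESeq2 (adjusted p = 0.0625) and in the edgeR fit of only the 2 groups compared (0.0657).

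HK3, a hexokinase of myeloid cells, had the largest rises of the family. It had 9.13, 9.43 and 11.1 CPM under BSJ-03-123, 8.76, 8.87 and 10.1 under YKL-06-102, 11.1, 11.7 and 11.1 under palbociclib, and 6.70, 7.38 and 5.75 in DMSO. All 9 treated libraries were above all 3 DMSO libraries. The log2 fold changes were 0.57 ± 0.103 under BSJ-03-123 (adjusted p = 8.95e-05), 0.47 ± 0.102 under YKL-06-102 (adjusted p = 4.93e-04) and 0.76 ± 0.099 under palbociclib (adjusted p = 5.79e-07). The summed level of the 3 hexokinases was 46.4 ± 2.10 RPKM under BSJ-03-123, 45.6 ± 0.686 under YKL-06-102, 47.8 ± 0.488 under palbociclib and 44.1 ± 0.762 in DMSO (SD, n = 3 each). Within that sum the HK1 share was 39.2% under BSJ-03-123, 45.6% under YKL-06-102, 38.7% under palbociclib and 38.7% in DMSO, and the HK3 share was 6.95% under BSJ-03-123, 6.62% under YKL-06-102, 7.70% under palbociclib and 4.89% in DMSO.

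**Figure D3:**
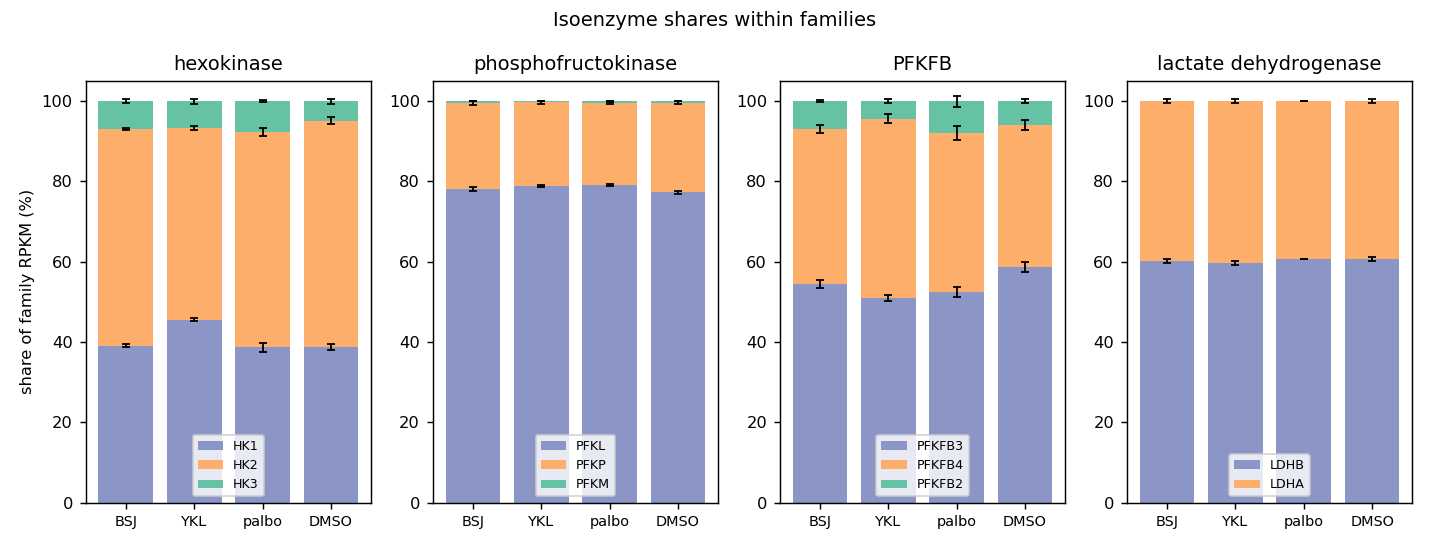
Share of each isoenzyme in the summed RPKM of its family, in percent, as stacked mean shares with SD bars (n = 3 libraries a group). HK1 takes 45.6% of hexokinase with YKL-06-102 and 38.7% in DMSO, while the phosphofructokinase and lactate dehydrogenase shares stay within 2 percentage points across the groups.

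Of the phosphofructokinase subunits, PFKP gave the firmest falls. PFKP, the platelet-type subunit, had 134, 135 and 136 CPM under BSJ-03-123, 137, 131 and 133 under YKL-06-102, 128, 133 and 131 under palbociclib, and 154, 163 and 151 in DMSO. All 9 treated libraries were below all 3 DMSO libraries. The log2 fold changes were -0.21 ± 0.034 under BSJ-03-123 (adjusted p = 2.69e-05), -0.22 ± 0.034 under YKL-06-102 (adjusted p = 4.78e-06) and -0.26 ± 0.034 under palbociclib (adjusted p = 7.04e-07). PFKP thus fell by 13.4% to 16.4%, and these calls held under all 18 alternatives. PFKL, the liver-type subunit and the main one here, changed by -0.13 ± 0.035 under BSJ-03-123, by -0.10 ± 0.035 under YKL-06-102 and by -0.11 ± 0.035 under palbociclib. The PFKL call with YKL-06-102 was lost under 12 of the 18 alternatives, among them RLE factors, DESeq2 and leaving out any one YKL-06-102 library, and the palbociclib call under 4. Without DMSO replicate 2 the PFKL value was -0.03 under YKL-06-102 (adjusted p = 0.527) and -0.06 under palbociclib (0.137). PFKM, the muscle-type subunit, stayed between 2.05 and 3.14 CPM and was called nowhere, and its exons share bases with the opposite-strand gene SENP1, which has more counts.

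The enzymes that set fructose 2,6-bisphosphate, the strongest activator of phosphofructokinase, divided by isoform. PFKFB2, the heart-type isoform, had 8.88, 8.47 and 9.01 CPM under BSJ-03-123, 5.32, 5.16 and 5.44 under YKL-06-102, 10.9, 8.13 and 10.6 under palbociclib, and 6.96, 6.21 and 6.95 in DMSO. The BSJ-03-123 and palbociclib libraries were all above DMSO and the YKL-06-102 libraries all below it. The log2 fold change was 0.40 ± 0.107 under BSJ-03-123 (adjusted p = 0.00557), -0.33 ± 0.115 under YKL-06-102 (adjusted p = 0.0246) and 0.57 ± 0.103 under palbociclib (adjusted p = 8.04e-05). The PFKFB2 fall with YKL-06-102 missed the threshold with DESeq2 (adjusted p = 0.0771) and without DMSO replicate 1 or 3 or any one YKL-06-102 library (0.0593 to 0.0894). Its exons share bases with YOD1 on the other strand, which has more counts, so without the strand setting of the counting the value is uncertain.

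PFKFB4, an isoform first described in testis and induced by hypoxia, rose with each compound. It had 14.7, 14.4 and 14.2 CPM under BSJ-03-123, 15.7, 18.2 and 14.9 under YKL-06-102, 13.9, 15.4 and 14.7 under palbociclib, and 11.7, 12.6 and 11.9 in DMSO, with no overlap between treated and DMSO libraries. The log2 fold changes were 0.25 ± 0.080 (adjusted p = 0.0177) under BSJ-03-123, 0.43 ± 0.077 (adjusted p = 5.44e-05) under YKL-06-102 and 0.27 ± 0.079 (adjusted p = 0.00784) under palbociclib. The call with BSJ-03-123 was lost with DESeq2 (adjusted p = 0.0686), without DMSO replicate 1 (0.0707) and without BSJ-03-123 replicate 1 (0.0607), and the palbociclib call without palbociclib replicate 2 (0.0519). PFKFB3, the inducible isoform with strong kinase activity, was not called (0.02 ± 0.059 under BSJ-03-123, -0.12 ± 0.059 under YKL-06-102 and -0.04 ± 0.059 under palbociclib).

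FBP1, the gluconeogenic phosphatase that opposes phosphofructokinase, had the largest rise among the 32 genes and it was with YKL-06-102. It had 31.0, 33.5 and 31.7 CPM under BSJ-03-123, 48.9, 49.8 and 47.3 under YKL-06-102, 35.0, 31.5 and 31.0 under palbociclib, and 29.1, 28.4 and 26.3 in DMSO. The YKL-06-102 libraries were above all 9 others, and the BSJ-03-123 and palbociclib libraries, which overlapped each other, were above DMSO. The log2 fold change was 0.20 ± 0.057 under BSJ-03-123 (adjusted p = 0.00936), 0.80 ± 0.053 under YKL-06-102 (1.74-fold, adjusted p = 7.97e-13) and 0.22 ± 0.056 under palbociclib (adjusted p = 0.00322). The smaller rises were not called without DMSO replicate 3 or BSJ-03-123 replicate 2 (adjusted p = 0.0621 and 0.0759) for BSJ-03-123, nor without palbociclib replicate 1 (0.0517) for palbociclib.

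The remaining upper steps moved little. ALDOA, the main aldolase, was not called with any compound, and the brain-type ALDOC rose under YKL-06-102 (0.25 ± 0.062, adjusted p = 0.00195) and palbociclib (0.22 ± 0.062, adjusted p = 0.00616) and stood at 0.12 ± 0.064 under BSJ-03-123, not called. Triosephosphate isomerase, TPI1, changed by -0.15 ± 0.034 under BSJ-03-123, -0.12 ± 0.034 under YKL-06-102 and -0.15 ± 0.034 under palbociclib. Its YKL-06-102 libraries overlapped DMSO and that call ended under 6 of the 18 alternatives, with -0.07 without DMSO replicate 2 (adjusted p = 0.0972) and the highest adjusted p, 0.159, without YKL-06-102 replicate 3. GPI, the isomerase that feeds fructose 6-phosphate forward, was not called against DMSO.

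In the lower steps the minor enolase ENO2 stood out, while GAPDH, ENO1, PGK1 and PKM differed from DMSO by -6.61% to 8.10%. ENO2, the neuronal enolase, had 2.86, 3.49 and 3.30 CPM under BSJ-03-123, 2.83, 3.75 and 2.55 under YKL-06-102, 3.09, 3.40 and 3.28 under palbociclib, and 5.50, 6.01 and 5.70 in DMSO. All 9 treated libraries were below every DMSO library. The log2 fold changes of -0.84 ± 0.135 under BSJ-03-123 (adjusted p = 2.01e-05), -0.92 ± 0.133 under YKL-06-102 (adjusted p = 2.10e-06) and -0.82 ± 0.132 under palbociclib (adjusted p = 1.49e-05) were the largest falls of the list and held under all 18 alternatives. ENO2 was 0.0906% of the summed enolase RPKM under BSJ-03-123, 0.0845% under YKL-06-102, 0.0911% under palbociclib and 0.151% in DMSO.

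PKM, the pyruvate kinase gene, rose with YKL-06-102 alone in the test and its difference from both other compounds was itself called. It had 836, 828 and 800.2 CPM under BSJ-03-123, 944, 923 and 918 under YKL-06-102, 804, 815 and 826 under palbociclib, and 854, 897 and 825 in DMSO. The YKL-06-102 libraries were above all others, and the BSJ-03-123 and palbociclib libraries overlapped DMSO. Against DMSO the log2 fold change was -0.06 ± 0.032 under BSJ-03-123 (adjusted p = 0.148), 0.11 ± 0.032 under YKL-06-102 (adjusted p = 0.00638) and -0.08 ± 0.032 under palbociclib (adjusted p = 0.0743). Without DMSO replicate 3 the YKL-06-102 value was 0.08 (adjusted p = 0.0524). In that fit PKM was called lower under BSJ-03-123 (-0.10, adjusted p = 0.0258) and palbociclib (-0.11, 0.012). DESeq2 on all libraries also called PKM lower under palbociclib (-0.08, adjusted p = 0.0496).

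GAPDH, which couples glycolysis to NADH, ENO1, the main enolase, and PGAM1, the phosphoglycerate mutase, gave small changes that were called with BSJ-03-123 and palbociclib. GAPDH had 3096, 3060.1 and 2936 CPM under BSJ-03-123, 3130, 3121 and 3073 under YKL-06-102, 2926, 3046 and 3055 under palbociclib, and 3203, 3334 and 3127 in DMSO. Its log2 fold change was -0.09 ± 0.033 under BSJ-03-123 (adjusted p = 0.0459), -0.05 ± 0.033 under YKL-06-102 (0.236) and -0.10 ± 0.033 under palbociclib (0.0215). The GAPDH call was lost under 11 of the 18 alternatives for BSJ-03-123 and 5 for palbociclib, and the ENO1 call under 7 for BSJ-03-123 and 12 for palbociclib, the last including RLE factors and leaving out any one palbociclib library. Without DMSO replicate 2 the GAPDH and ENO1 calls ended with BSJ-03-123 (adjusted p = 0.109 and 0.143) and with palbociclib (0.0539 and 0.210), and the PGAM1 call ended with BSJ-03-123 (-0.15, adjusted p = 0.0666). PGAM1 had changed by -0.24 ± 0.065 under BSJ-03-123, -0.08 ± 0.062 under YKL-06-102 (not called) and -0.26 ± 0.064 under palbociclib, and ENO1 by -0.10 ± 0.034 under BSJ-03-123, -0.08 ± 0.034 under YKL-06-102 (not called) and -0.09 ± 0.034 under palbociclib. Phosphoglycerate kinase, PGK1, was not called. GENCODE names 62 pseudogenes of GAPDH, 13 of PGAM1 and 6 of LDHA, whose sequence can share reads with the parent gene.

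Of the genes that use pyruvate, both lactate dehydrogenase subunits fell with each compound. LDHA, which favours lactate formation, had 685, 693 and 670 CPM under BSJ-03-123, 689, 688 and 671 under YKL-06-102, 682, 677 and 675 under palbociclib, and 737, 740 and 755 in DMSO. LDHB, the heart-type subunit, had 808, 803 and 807 CPM under BSJ-03-123, 806, 796 and 758 under YKL-06-102, 817, 815 and 809 under palbociclib, and 904, 886 and 888 in DMSO. For both genes every treated library was below every DMSO library. LDHA changed by -0.12 ± 0.029 under BSJ-03-123 (adjusted p = 0.00133), -0.12 ± 0.029 under YKL-06-102 (8.80e-04) and -0.13 ± 0.029 under palbociclib (5.02e-04), and LDHB by -0.15 ± 0.030 under BSJ-03-123 (3.16e-04), -0.18 ± 0.030 under YKL-06-102 (1.24e-05) and -0.13 ± 0.030 under palbociclib (7.55e-04). The LDHB share of their summed RPKM stayed between 59.7% and 60.7% in the 4 groups.

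Pyruvate dehydrogenase kinase 1, PDK1, which phosphorylates and inactivates the E1 subunit, had 18.1, 17.4 and 19.0 CPM under BSJ-03-123, 15.1, 15.2 and 16.1 under YKL-06-102, 18.5, 18.9 and 18.4 under palbociclib, and 21.8, 20.0 and 19.6 in DMSO. Every treated library was below every DMSO library, furthest with YKL-06-102. The log2 fold change was -0.17 ± 0.063 under BSJ-03-123 (adjusted p = 0.0423), -0.40 ± 0.063 under YKL-06-102 (7.30e-06) and -0.14 ± 0.062 under palbociclib (0.0947, not called), and the BSJ-03-123 call ended under 7 of the 18 alternatives. The E1 subunit PDHB rose with palbociclib (0.12 ± 0.037, adjusted p = 0.00904) and was not called with BSJ-03-123 (0.08 ± 0.037) or YKL-06-102 (0.07 ± 0.037). PDHA1, the catalytic E1 subunit, and PDK3, a kinase of low abundance here, were not called.

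In the pentose phosphate pathway the 2 enzymes that interconvert ribulose 5-phosphate fell with each compound, while an oxidative enzyme rose with YKL-06-102. RPE, the epimerase that makes xylulose 5-phosphate, had 58.5, 58.5 and 58.2 CPM under BSJ-03-123, 52.5, 54.3 and 50.9 under YKL-06-102, 59.8, 60.3 and 58.2 under palbociclib, and 67.7, 62.7 and 67.5 in DMSO. The YKL-06-102 libraries were the lowest and the DMSO libraries the highest, with BSJ-03-123 and palbociclib between and overlapping each other. RPE changed by -0.17 ± 0.042 under BSJ-03-123 (adjusted p = 0.00226), -0.33 ± 0.042 under YKL-06-102 (3.27e-07) and -0.15 ± 0.042 under palbociclib (0.00685), and the palbociclib call was lost when only library totals set the scale (-0.10, adjusted p = 0.0650). RPE shares exon bases with KANSL1L on the other strand, which has fewer counts. RPIA, the isomerase that makes ribose 5-phosphate, changed by -0.13 ± 0.039 under BSJ-03-123 (0.0161), -0.20 ± 0.039 under YKL-06-102 (1.26e-04) and -0.15 ± 0.039 under palbociclib (0.00281). The RPIA call with BSJ-03-123 ended with library totals as the scale (adjusted p = 0.109) and under 3 other alternatives.

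PGD, the oxidative enzyme that releases carbon dioxide and makes NADPH, had 506, 511 and 482 CPM under BSJ-03-123, 548, 543 and 540 under YKL-06-102, 489, 498 and 504 under palbociclib, and 481, 505 and 485 in DMSO. The YKL-06-102 libraries were above all 9 others, which overlapped. PGD changed by 0.15 ± 0.031 under YKL-06-102 (adjusted p = 2.78e-04) and was not called under BSJ-03-123 (0.03 ± 0.031) or palbociclib (0.02 ± 0.031). PGLS, the lactonase before PGD, was called with YKL-06-102 (0.11 ± 0.043, adjusted p = 0.0361) in libraries that overlapped DMSO. That call ended without DMSO replicate 1 (adjusted p = 0.0773), DMSO replicate 3 (0.06, adjusted p = 0.299) or YKL-06-102 replicate 3 (adjusted p = 0.0957). TKT and TALDO1, which exchange carbon with glycolysis, were not called against DMSO. Without DMSO replicate 2, TKT, TALDO1, ALDOA and GPI were called higher under YKL-06-102 at 0.17, 0.09, 0.10 and 0.09, and PGLS was called higher under BSJ-03-123 and palbociclib at 0.16 each. Without DMSO replicate 3, TKT and ALDOA were called lower under palbociclib at -0.11 and -0.09, and TALDO1 under BSJ-03-123 at -0.10. ENO1 and PFKFB3 were called lower under YKL-06-102 in that fit, at -0.11 and -0.16.

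**Figure D4:**
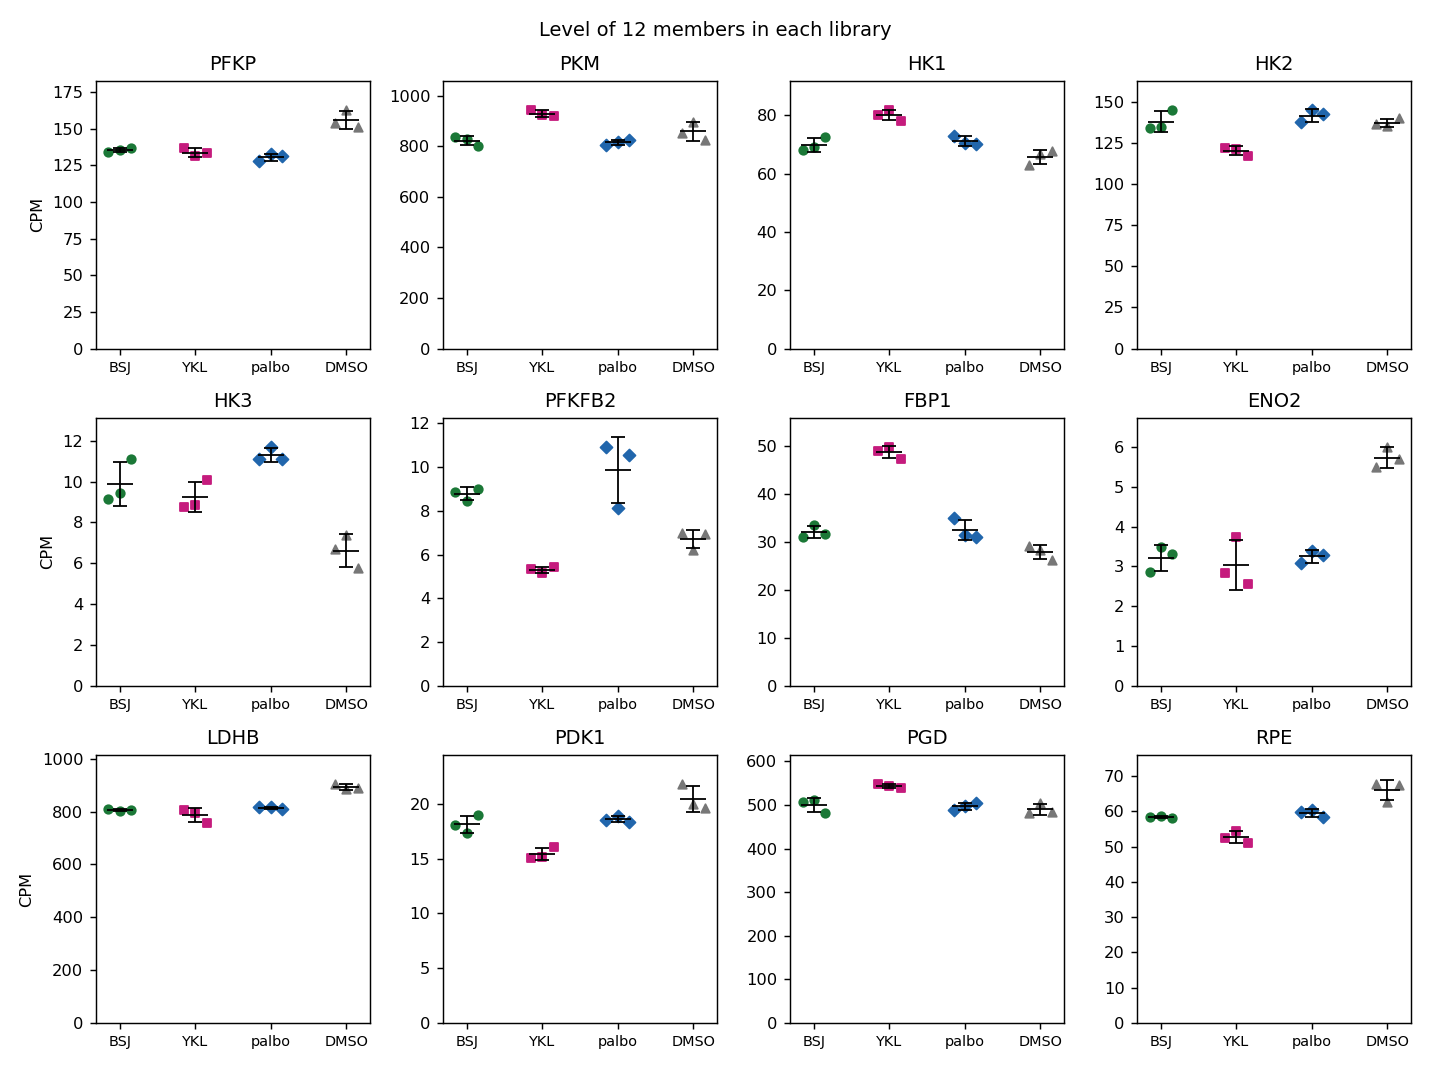
CPM of 12 genes in each library, with the mean and SD of the 3 libraries of a group, where BSJ, YKL and palbo stand for BSJ-03-123, YKL-06-102 and palbociclib. PFKP, ENO2 and LDHB are lower in all treated libraries than in DMSO, whereas HK1, PKM, FBP1 and PGD are highest and HK2, PFKFB2 and PDK1 lowest with YKL-06-102.

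The compounds were then compared directly at the same dose and time in 3 pairs, with p-values adjusted over all genes within each pair. Between BSJ-03-123 and palbociclib, 0 of the 32 genes were called by edgeR, where 0.155% of all genes tested were called, and 1 gene, HK3, had an unadjusted p under 0.05. DESeq2 also called 0. The 95% interval of the difference lay within 1.25-fold for 28 of the 32 genes. The 4 others were all of low abundance: the log2 interval ran from -0.28 to 0.38 for PFKM, from -0.37 to 0.03 for PFKFB2 and from -0.67 to 0.21 for PDK3, and for HK3 it ran from -0.38 to just under 0. A p above the threshold does not show that the compounds act alike on these genes.

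Between YKL-06-102 and palbociclib, 12 of the 32 genes were called, 7 higher and 5 lower, where 24.7% of all genes tested were called (12.7% higher and 11.9% lower). FBP1 was higher by 0.58 ± 0.051 (adjusted p = 6.49e-10), with PKM at 0.19 ± 0.032 (4.85e-05), HK1 at 0.17 ± 0.039 (0.00159), TKT at 0.14 ± 0.039 (0.00876), PGD at 0.13 ± 0.031 (0.00189) and GPI at 0.10 ± 0.032 (0.0234). PFKFB2 was lower by -0.90 ± 0.105 (adjusted p = 1.19e-07), with PDK1 at -0.27 ± 0.063 (0.00192), HK2 at -0.24 ± 0.036 (8.60e-06) and RPE at -0.18 ± 0.042 (0.00182). The YKL-06-102 libraries lay wholly above those of palbociclib for 10 of the 32 genes and wholly below for 8, where 41% of all genes tested did not overlap. Of the 26 abundant genes 10 were called, against 32% of all genes at that level. PGAM1 at 0.18 ± 0.063 (0.0365) and HK3 at -0.29 ± 0.090 (0.0184) completed the calls, and each lost its call under 5 of the 18 alternatives, as GPI did without palbociclib replicate 3 (adjusted p = 0.0562). PFKP and the lactate dehydrogenases were not called in this pair, with intervals of -0.04 to 0.11 for PFKP, -0.05 to 0.07 for LDHA and -0.11 to 0.01 for LDHB.

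Between BSJ-03-123 and YKL-06-102, 9 of the 32 genes were called, 4 higher and 5 lower, where 20.1% of all genes tested were called (9.74% higher and 10.4% lower). PFKFB2 was higher with BSJ-03-123 by 0.73 ± 0.109 (adjusted p = 9.32e-06), PDK1 by 0.23 ± 0.065 (0.00956), HK2 by 0.20 ± 0.036 (1.37e-04) and RPE by 0.15 ± 0.042 (0.00990). FBP1 was lower with BSJ-03-123 at -0.60 ± 0.052 (adjusted p = 7.20e-10), as were HK1 at -0.20 ± 0.040 (4.82e-04), PKM at -0.18 ± 0.032 (1.45e-04), PGD at -0.12 ± 0.031 (0.00441) and GPI at -0.10 ± 0.032 (0.0253). The PDK1 and RPE calls were each lost under 4 of the 18 alternatives (adjusted p up to 0.0763 for PDK1 and 0.139 for RPE), and the GPI call without BSJ-03-123 replicate 3 (0.119). Of the 26 abundant genes 8 were called, against 26.9% of all genes at that level. The BSJ-03-123 libraries lay wholly above those of YKL-06-102 for 5 of the 32 genes and wholly below for 10, where 35.6% of all genes did not overlap. Without DMSO replicate 2, which is in neither group but enters the fit of all 12 libraries, 14 were called. The 5 that joined were PFKFB4, ALDOA, PGAM1, TKT and TALDO1, all lower with BSJ-03-123. In the edgeR fit of only these 2 groups, which holds no DMSO library, 12 were called. PGAM1, TKT and TALDO1 joined there too, again lower with BSJ-03-123, and PGAM1 was called under 8 of the 18 alternatives. The YKL-06-102 libraries are common to the comparison with palbociclib and the comparison with BSJ-03-123.

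**Figure D5:**
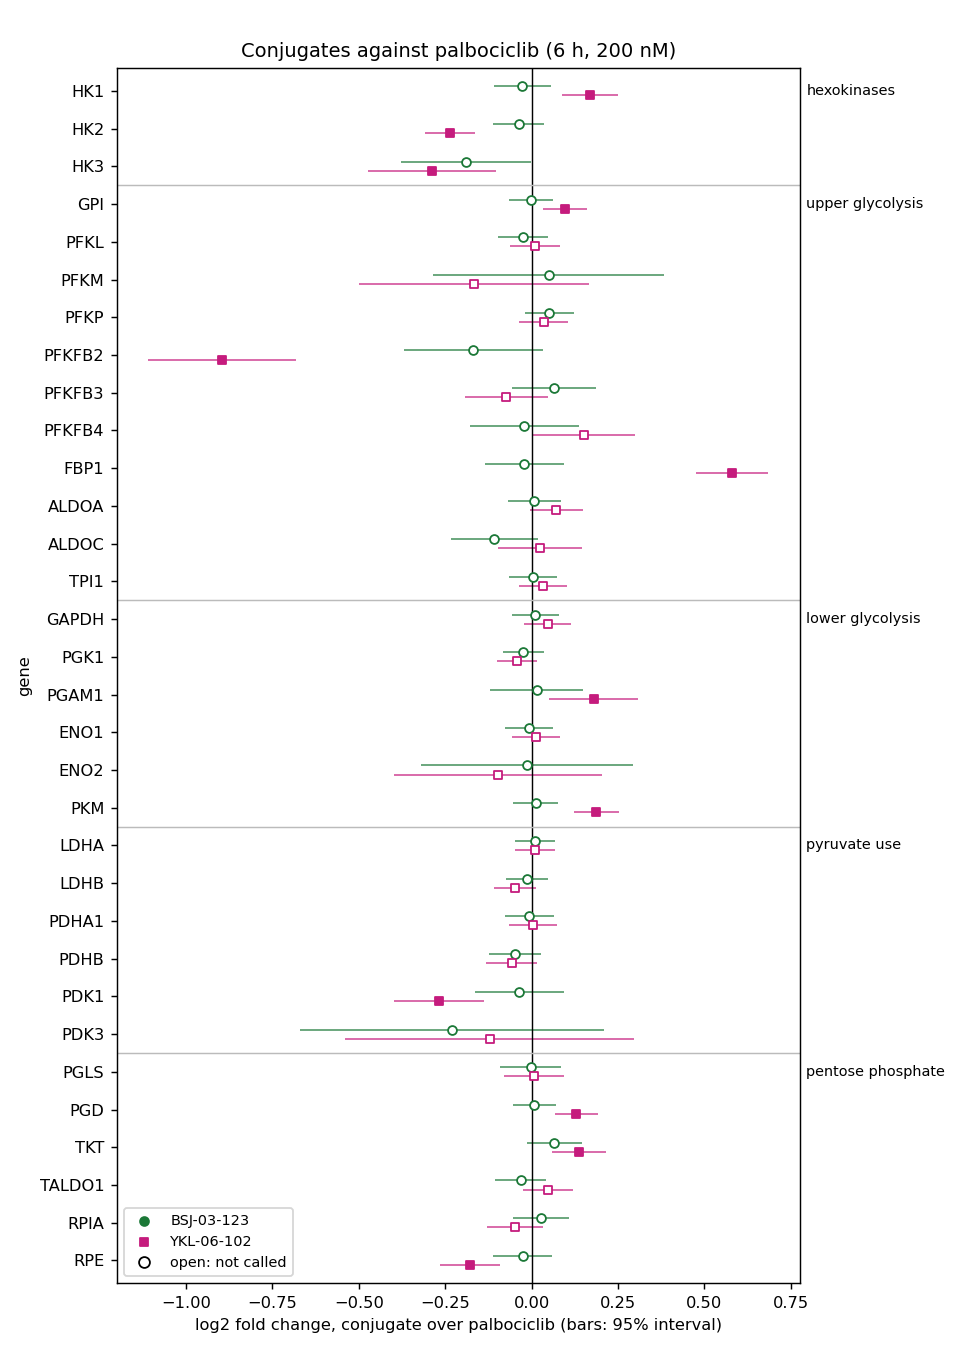
Log2 fold change of each gene, BSJ-03-123 or YKL-06-102 over palbociclib, with its 95% interval, where filled symbols were called and open ones were not (n = 3 libraries a group). All BSJ-03-123 symbols are open, and the YKL-06-102 symbols furthest from 0 are PFKFB2 at -0.90 and FBP1 at 0.58.

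Other genes of the same routes came from a list of 56 transporters, isoforms and neighbouring enzymes, of which 37 had enough counts to be tested. Called against DMSO were 15 under BSJ-03-123 (7 higher, 8 lower), 13 under YKL-06-102 (6 higher, 7 lower) and 17 under palbociclib (10 higher, 7 lower). These are 40.5% of the 37 for BSJ-03-123, 35.1% for YKL-06-102 and 45.9% for palbociclib, against 28.1%, 36.9% and 33.3% of all genes tested for BSJ-03-123, YKL-06-102 and palbociclib. PRPS2 and PRPS1, which make the ribose donor for nucleotides from the pathway's ribose 5-phosphate, fell with each compound. PRPS2 averaged 47.9 ± 0.864 CPM under BSJ-03-123, 56.8 ± 0.691 under YKL-06-102, 45.2 ± 0.421 under palbociclib and 74.6 ± 1.74 in DMSO (SD, n = 3 each), and its log2 fold changes were -0.64 ± 0.040 under BSJ-03-123, -0.39 ± 0.038 under YKL-06-102 and -0.72 ± 0.040 under palbociclib. PRPS1 changed by -0.38 ± 0.036 under BSJ-03-123, -0.36 ± 0.036 under YKL-06-102 and -0.43 ± 0.036 under palbociclib. PRPS2 was higher with YKL-06-102 than with palbociclib by 0.33 ± 0.040 (adjusted p = 2.32e-07).

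Phosphoglucomutase 1, PGM1, which links glycogen to glucose 6-phosphate, had its lowest level with YKL-06-102. It averaged 11.8 ± 1.01 CPM under BSJ-03-123, 6.87 ± 0.727 under YKL-06-102, 11.6 ± 0.779 under palbociclib and 13.9 ± 0.951 in DMSO. PGM1 changed against DMSO by -0.24 ± 0.085 under BSJ-03-123 (adjusted p = 0.0356), -1.02 ± 0.092 under YKL-06-102 (4.87e-10) and -0.26 ± 0.084 under palbociclib (0.0160), and was lower under YKL-06-102 than under palbociclib by -0.75 ± 0.094 (3.70e-07). The PGM1 call was lost under 6 of the 18 alternatives for BSJ-03-123 and 3 for palbociclib. Its exons share bases with ITGB3BP on the other strand, which has more counts. The mitochondrial glycerol phosphate dehydrogenase GPD2 changed by -0.29 ± 0.054 under BSJ-03-123, -0.45 ± 0.054 under YKL-06-102 and -0.36 ± 0.054 under palbociclib. SLC37A4, the carrier of glucose 6-phosphate into the endoplasmic reticulum, changed by -0.54 ± 0.054 under BSJ-03-123, -0.34 ± 0.052 under YKL-06-102 and -0.52 ± 0.054 under palbociclib, though TRAPPC4 overlaps it on the other strand with more counts.

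H6PD, which runs the oxidative steps inside the endoplasmic reticulum, rose by 0.26 ± 0.048 under BSJ-03-123, 0.30 ± 0.047 under YKL-06-102 and 0.31 ± 0.047 under palbociclib. The fructose carrier SLC2A5 rose by 0.17 ± 0.032 under BSJ-03-123, 0.32 ± 0.032 under YKL-06-102 and 0.16 ± 0.032 under palbociclib, and PDP1, the phosphatase that reactivates pyruvate dehydrogenase, by 0.31 ± 0.079 under BSJ-03-123, 0.34 ± 0.077 under YKL-06-102 and 0.39 ± 0.078 under palbociclib. The glucose carrier SLC2A3 and its relative SLC2A6 rose under BSJ-03-123 (0.43 ± 0.120 and 0.34 ± 0.073) and under palbociclib (0.34 ± 0.119 and 0.37 ± 0.071), and neither was called under YKL-06-102 (0.05 ± 0.122 and 0.13 ± 0.073). The SLC2A3 call for palbociclib was lost under 5 alternatives. LDHD, the D-lactate dehydrogenase, was called with BSJ-03-123 (1.04 ± 0.310, adjusted p = 0.0117) at levels of 1.05 to 1.46 CPM, against 0.380 to 0.847 CPM in DMSO, and was not called without BSJ-03-123 replicate 3 or DMSO replicate 3. SLC2A1, the main glucose carrier here, was not called against DMSO (0.02 ± 0.041 under BSJ-03-123, -0.07 ± 0.041 under YKL-06-102 and 0.04 ± 0.041 under palbociclib).

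Among 9 transcription factors and related regulators of these routes, 3 were called under BSJ-03-123, all higher, 5 under YKL-06-102 (3 higher, 2 lower) and 4 under palbociclib (3 higher, 1 lower). Of all genes tested, 28.1% were called for BSJ-03-123, 36.9% for YKL-06-102 and 33.3% for palbociclib. TXNIP, which restrains glucose uptake and responds to glucose 6-phosphate through MLXIP, averaged 447 ± 4.33 CPM under BSJ-03-123, 433 ± 2.84 under YKL-06-102, 482 ± 7.76 under palbociclib and 337 ± 1.31 in DMSO. It rose by 0.41 ± 0.028 under BSJ-03-123, 0.36 ± 0.028 under YKL-06-102 and 0.52 ± 0.028 under palbociclib, and MLXIP itself rose by 0.17 ± 0.037 under BSJ-03-123, 0.23 ± 0.037 under YKL-06-102 and 0.11 ± 0.037 under palbociclib, the last lost under 3 alternatives. HIF1A, the oxygen-regulated factor of glycolytic genes, was called lower under YKL-06-102 (-0.13 ± 0.048, adjusted p = 0.0336) and palbociclib (-0.17 ± 0.049, 0.00675), and stood at -0.12 ± 0.049 under BSJ-03-123 (0.0618). The HIF1A call was lost under 12 of the 18 alternatives for YKL-06-102, DMSO replicate 2 left out among them (adjusted p = 0.0603), and for palbociclib without palbociclib replicate 3 (0.0600). Its partner ARNT rose under BSJ-03-123 (0.14 ± 0.040) and palbociclib (0.16 ± 0.040) and was not called under YKL-06-102 (0.01 ± 0.040), and the BSJ-03-123 call was lost under 2 alternatives. MYC, a driver of glycolytic genes in many tumours, was called lower under YKL-06-102 (-0.10 ± 0.035, adjusted p = 0.0214) and not under BSJ-03-123 (-0.02 ± 0.035) or palbociclib (-0.06 ± 0.035). That MYC call was lost under 10 of the 18 alternatives, and without DMSO replicate 2 the value was -0.04 (adjusted p = 0.362).

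NFE2L2, which drives PGD and TKT in oxidative stress, rose with YKL-06-102. It averaged 160 ± 1.92 CPM under BSJ-03-123, 185 ± 3.12 under YKL-06-102, 159 ± 7.80 under palbociclib and 157 ± 1.99 in DMSO. The log2 fold change against DMSO was 0.24 ± 0.034 under YKL-06-102 (adjusted p = 1.30e-06) and was not called under BSJ-03-123 (0.03 ± 0.035) or palbociclib (0.02 ± 0.034). NFE2L2 was also higher with YKL-06-102 than with palbociclib by 0.22 ± 0.034 (adjusted p = 1.10e-05). MLX, MLXIPL and BACH1 were not called against DMSO. Between YKL-06-102 and palbociclib, 6 of the 9 regulators were called, 2 higher and 4 lower, where 24.7% of all genes tested were called. Besides NFE2L2, MLXIP was higher (0.12, adjusted p = 0.0163). TXNIP (-0.16, 7.73e-05), ARNT (-0.16, 0.00267), BACH1 (-0.14, 0.0245) and MLX (-0.10, 0.0426) were lower. Of the 18 alternatives, 14 lost the MLX call, 7 the BACH1 call, 2 the ARNT call and 1 the MLXIP call. Of the kinases the compounds address, CDK6 messenger RNA rose by 0.19 ± 0.035 under BSJ-03-123, 0.16 ± 0.035 under YKL-06-102 and 0.14 ± 0.035 under palbociclib and CDK4 messenger RNA changed by -0.42 ± 0.033 under BSJ-03-123, -0.36 ± 0.033 under YKL-06-102 and -0.45 ± 0.033 under palbociclib. Protein levels and enzyme activities were not measured here.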

How the data were processed

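RNA of MV4-11 cells was sequenced in 12 libraries, 3 per group, from polyadenylated RNA with a stranded kit, as the labels' protocols state. Raw counts of reads for each Ensembl gene were deposited, one column a library, without normalization. The submitters' processing notes name Trimmomatic 0.36, STAR 2.5.2b, HTSeq and hg38. For HTSeq, the version, annotation and strand setting were not given in the sources used here.

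Gene IDs were named through GENCODE 29 (57447 of 58051 matched). Genes passing edgeR's filterByExpr by group (minimum count 10, minimum total 15) numbered 14214. One edgeR 4.0.16 model (R 4.3.3) covered all 12 libraries (TMM factors, quasi-likelihood fit and test by group, 8 residual degrees of freedom, 2-sided), and p-values were adjusted by Benjamini-Hochberg over all genes tested in each contrast. Errors of log2 fold changes are SE derived from the test, as the absolute log2 fold change over the square root of its F statistic. The 95% intervals were built from these SE. The model's common biological coefficient of variation was 3.08%. CPM and RPKM were computed from the counts, RPKM with the median length of protein-coding transcripts. Intervals cover the spread between libraries, and reads had no molecular identifiers.

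The members and lists were chosen with earlier results of these data known. All 32 members could be named. Companion genes were named when called against DMSO, at most the 3 highest and 3 lowest per compound, and the regulators, SLC2A1 and SLC2A3 in every case; some genes of the lists are not reported here. Alternatives were RLE factors, library totals, no filter, the compared groups alone, a replicate block, DESeq2 1.42.0 and leaving out each library. Promoter sequences came from RefSeq (GRCh38.p14).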

Additional observations from a re-analysis of the deposited data

How the results depend on the processing

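Of 74 calls of the 32 genes over the 6 contrasts, 49 held under all 18 alternatives and 25 were lost under at least 1. Leaving out 1 library at a time, the number of genes called ranged from 11 to 17 for BSJ-03-123 against DMSO, from 15 to 21 for YKL-06-102 against DMSO and from 13 to 21 for palbociclib against DMSO. It was 0 throughout for BSJ-03-123 against palbociclib, ranged from 10 to 13 for YKL-06-102 against palbociclib, and from 7 to 14 for BSJ-03-123 against YKL-06-102, where 14 came without DMSO replicate 2. The cause was not tested. The lowest counts came without DMSO replicate 1 for BSJ-03-123, without YKL-06-102 replicate 3 for YKL-06-102 and without palbociclib replicate 1 for palbociclib against DMSO. With library totals only, the counts against DMSO were 15, 20 and 16 for BSJ-03-123, YKL-06-102 and palbociclib, and with DESeq2 they were 14, 17 and 18.

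With the replicate number as a block the counts were 16, 19 and 18 against DMSO for BSJ-03-123, YKL-06-102 and palbociclib, and 0, 12 and 9 in the pairs of compounds, each with the same calls as without the block. The numbers did not pair the libraries: deviations of same-numbered libraries correlated at -0.05 to 0.11, and 1 of 18 pairs passed 0.1. Genes of low counts, such as PFKM, PDK3, ENO2 and PFKFB2, had the widest intervals, and a small difference in them was not detectable at this depth.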
